A study of Mus musculus with 18 samples.

Results

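Vasp, Lcp1, Clic1, Pdpn, Srgn and Lilrb4a are 6 mouse genes of the actin cytoskeleton, the cell surface and leukocytes. They were picked by symbol for low p-values in the thalamus of mice given Coll IV and remodelin, set against mice given Coll IV alone or saline. The count table holds 50559 genes, of which 18452 had enough counts to be tested, and all 6 genes are among these. Because low p-values chose them, their differences between remodelin-treated tissue and the other groups are given as a description. How far replicates 1 to 3 and replicates 4 to 6 of each group gave the same picture was fixed only in part. A low p over all replicates favours genes whose libraries vary little within a group.

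The study measured polyadenylated RNA in the thalamus of mice labelled WT, in a setting its title names as thalamic hemorrhage treated with an inhibitor of NAT10, an enzyme that acetylates RNA. The control group received saline, the model group Coll IV, and the intervene group Coll IV and remodelin, with 6 libraries in each. The WT genotype is shared by all 18 libraries. Neither the labels nor the design text states age, sex, dose or time after treatment. Nor do they say that the 6 replicates of a group were separate animals, so the p-values below reflect only how far these samples spread, which may be technical.

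Actin filaments grow at their ends, are tied into bundles and are anchored to the membrane, and the balance of these steps sets the shape and movement of a cell. Vasp, of the Ena/VASP family, promotes filament elongation at the leading edge. Lcp1 encodes L-plastin, the filament bundler of blood cells, which in brain tissue is found mainly in microglia and infiltrating leukocytes. Podoplanin, the product of Pdpn, is a membrane glycoprotein that binds ezrin, radixin and moesin, the ERM proteins that join membrane to actin, and reactive astrocytes can carry it. Clic1, a chloride intracellular channel protein, is found in phagocytes and many other cells. Srgn encodes serglycin, the proteoglycan that packs cargo into the granules of blood cells, and Lilrb4a encodes an inhibitory receptor of myeloid cells with tyrosine motifs in its tail.

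Library totals ran from 28481225 to 118461420 counts, with control replicate 1 the deepest. Among genes with 10 to 1000 counts, 64.9% to 72.9% had an even count in each library, and the cause was not tested. The brain region also varied between the number sets. The summed level of 12 thalamic neuron markers was 512 to 637 CPM (counts per 1000000, with library sizes scaled by the trimmed mean of M values, TMM) in control replicates 1 to 3 and 123 to 126 in control replicates 4 to 6, and 11 markers of hippocampus and cortex gave 790 to 4167 and 8814 to 9531 CPM. In the model group the thalamic sum was 394 to 593 CPM in replicates 1 to 3 and 161 to 243 CPM in replicates 4 to 6. The intervene group stood at 422 to 483 and 329 to 491 CPM, so its replicates 4 to 6 carried more thalamic marker RNA than those of the other groups. Over all genes, 49.6% of the 18452 tested differed between the number sets across groups (edgeR quasi-likelihood test, adjusted p under 0.05). None of the 6 genes did, with adjusted p from 0.101 (Pdpn) to 0.576 (Clic1), but a low p between groups favours genes that vary little within them, so nothing is read from that count.

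Vasp had 7.14 to 10.5 CPM in the control libraries, with a median of 8.70. It had 8.83 to 11.3 CPM in the model libraries, with a median of 10.7, and 12.7 to 16.8 CPM in the intervene libraries, with a median of 14.1. Every intervene library lay above every control and every model library, while control and model overlapped. The group means were 8.91 ± 1.25, 10.3 ± 0.964 and 14.2 ± 1.46 CPM (SD, n = 6). The log2 fold change was 0.67 ± 0.10 (SE) against control and 0.47 ± 0.10 against model. Of all genes tested, Vasp had the lowest p against control and ranked 3 against model.

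Lcp1 had 7.69 to 11.8 CPM in control, 8.35 to 14.0 in model and 12.2 to 20.9 in intervene. The 3 intervene libraries numbered 4 to 6 had 17.99, 18.3 and 20.9 CPM, above every other library. Intervene replicates 1 to 3 had 12.2, 14.8 and 13.7 CPM, all above the control libraries. Of these, replicates 1 and 3 lay below model replicate 1, the highest model library at 14.0 CPM, and replicate 2 above it. The group means were 9.77 ± 1.69, 10.5 ± 2.02 and 16.3 ± 3.27 CPM (SD, n = 6). On the log2 scale the difference was 0.74 ± 0.15 (SE) against control and 0.63 ± 0.15 against model.

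Pdpn had 8.10 to 14.5 CPM in control, 12.1 to 15.5 in model and 15.3 to 24.5 in intervene. Its intervene libraries stood above all control libraries, and intervene replicate 1, at 15.3 CPM, fell just under model replicate 2, at 15.5 CPM. The means were 10.6 ± 2.31, 13.4 ± 1.31 and 18.4 ± 3.52 CPM (SD, n = 6). The log2 fold change was 0.79 ± 0.14 (SE) against control and 0.45 ± 0.14 against model.

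Clic1 had 11.9 to 14.6 CPM in control, 12.7 to 17.2 in model and 16.1 to 22.5 in intervene. All intervene libraries were above all control libraries, and 2 of them, replicates 1 and 5, lay within the model range. The means were 12.6 ± 1.00, 15.3 ± 1.61 and 18.9 ± 2.51 CPM (SD, n = 6). Its log2 fold change was 0.58 ± 0.10 (SE) against control and 0.30 ± 0.10 against model.

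Of the 5 genes with a RefSeq promoter entry (Lilrb4a has none), Clic1 and Srgn were the ones whose window of 250 bases before a RefSeq transcription start held any of 6 motifs searched on both strands, and their windows are printed for that reason. Bases are from GRCm38.p6, 5′ to 3′ in the direction of transcription, with motif letters in capitals.
Clic1, chr17:35049993-35050242, plus strand: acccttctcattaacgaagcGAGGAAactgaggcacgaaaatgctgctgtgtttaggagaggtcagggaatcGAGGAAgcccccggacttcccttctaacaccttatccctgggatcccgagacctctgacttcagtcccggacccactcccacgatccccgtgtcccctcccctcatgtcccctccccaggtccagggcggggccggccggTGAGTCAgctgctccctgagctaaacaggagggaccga
Srgn, second start, chr10:62507758-62508007, minus strand: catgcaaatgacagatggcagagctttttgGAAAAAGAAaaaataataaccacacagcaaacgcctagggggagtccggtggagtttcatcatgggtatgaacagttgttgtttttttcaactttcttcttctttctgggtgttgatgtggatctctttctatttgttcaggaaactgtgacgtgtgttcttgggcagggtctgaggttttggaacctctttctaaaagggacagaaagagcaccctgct

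Counting from the start, with -1 the base before it, the Clic1 window held the PU.1 core GAGGAA at -230 and -178 and the AP-1 element TGANTCA at -38. The Srgn window at its second start held the interferon regulatory factor pattern GAAANNGAA at -220. Such matches are frequent, being in 23.25% (PU.1 core), 6.749% (AP-1) and 7.129% (interferon regulatory factor) of 32851 windows of the same length. The cyclic AMP response element TGACGTCA, in 1.546% of windows, the NF-kB motif, in 3.899%, and the CArG box, in 1.467%, were searched as well, and their letters are in none of the 7 windows of the 5 genes with an entry. A match describes letters only, and no binding was measured here.

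Srgn had 7.32 to 8.90 CPM in control, 7.42 to 10.4 in model and 9.20 to 18.9 in intervene. Control and model libraries overlapped. Intervene replicates 1 to 3 had 9.20, 12.8 and 10.1 CPM and replicates 4 to 6 had 11.97, 18.9 and 17.4 CPM, so its highest values came from replicates 5 and 6. The means were 8.10 ± 0.678, 8.63 ± 1.14 and 13.4 ± 3.95 CPM (SD, n = 6). The log2 fold change was 0.73 ± 0.16 (SE) against control and 0.64 ± 0.16 against model.

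Lilrb4a was the scarcest of the 6, with 4 to 10 counts per control library, 6 to 23 per model library and 8 to 77 per intervene library. In CPM these were 0.082 to 0.360, 0.178 to 0.681 and 0.285 to 2.63. Intervene replicates 4 to 6 had 76, 62 and 77 counts, against 8, 30 and 43 in replicates 1 to 3. The lowest intervene library, replicate 1 with 8 counts, lay within the control and model ranges. The log2 fold change of 2.95 ± 0.52 (SE) against control and 1.90 ± 0.49 against model was the largest of the 6, with the widest error. A neighbouring gene, Lilr4b (synonym Gp49a in RefSeq), encodes a closely related receptor, and the labels do not say how reads that match both were assigned, so the level of each is uncertain. Lilr4b had 0 to 6 counts in each control and each model library and 5 to 21 in each intervene library.

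**Figure D1:**
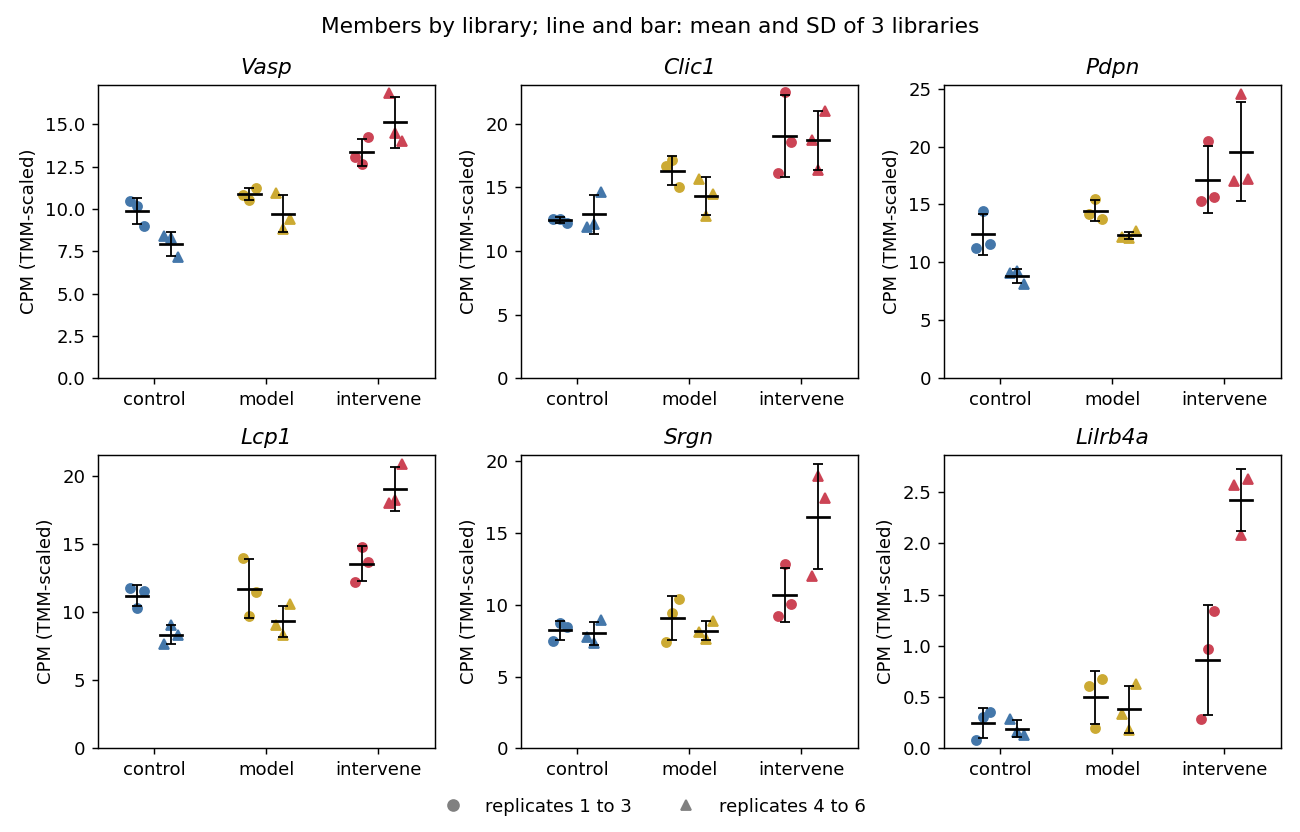
CPM of each gene in each library by group (x axis), circles for replicates 1 to 3 and triangles for replicates 4 to 6, with the mean and SD of each 3 libraries. The y axes start at 0; Lcp1 in intervene stands at 12.2 to 14.8 CPM in the circles and 17.99 to 20.9 in the triangles, while Clic1 shows no such separation.

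The p-values that chose the genes place them at ranks 1 (Vasp), 3 (Clic1), 4 (Lilrb4a), 5 (Pdpn), 14 (Lcp1) and 20 (Srgn) of 18452 against control. Their edgeR adjusted p-values in that comparison were 0.0617, 0.0702, 0.0944, 0.0944, 0.184 and 0.191 in the same order. Against model the ranks were 3 for Vasp, 6 for Lcp1, 7 for Srgn, 15 for Lilrb4a, 61 for Pdpn and 73 for Clic1, each with an edgeR adjusted p of 0.988. None of the 6 and none of all genes passed adjusted p under 0.05 in intervene against control or in intervene against model (0% of 18452), while 8.41% and 2.88% had an unadjusted p under 0.05. DESeq2, an alternative tool, gave 73 genes against control, and these hold all 6, with adjusted p from 8.12e-06 (Vasp) to 0.00783 (Srgn). By DESeq2 2 genes passed against model, and none of the 6 is among them (adjusted p 0.0654 for Vasp, 0.168 to 0.574 for the others). In 5 of the 6, all but Lilrb4a, the 6 intervene libraries lay above the 6 control libraries, as they did in 0.369% of all genes. Against model this held for Vasp alone, and for 0.152% of all genes. These counts restate the choice of the genes.

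Between Coll IV alone and saline the differences of the 6 genes were smaller. Model against control shares its libraries with the comparisons above, so its values are a description too. The log2 fold changes were 0.33 ± 0.14 (SE) for Pdpn, 0.28 ± 0.10 for Clic1, 0.21 ± 0.10 for Vasp, 0.11 ± 0.15 for Lcp1, 0.09 ± 0.16 for Srgn and 1.05 ± 0.52 for Lilrb4a. All 6 were positive, beside 49.6% of all genes. Their edgeR adjusted p-values were all 1.00, no gene of the 18452 was called (0%, and 1.68% at an unadjusted p under 0.05), and model and control libraries overlapped for each of the 6.

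The number sets gave the same direction and unequal sizes. Among replicates 1 to 3 the log2 fold change against control was 0.43 ± 0.12 (SE) for Vasp, 0.62 ± 0.13 for Clic1, 0.47 ± 0.15 for Pdpn, 0.27 ± 0.14 for Lcp1, 0.39 ± 0.18 for Srgn and 1.98 ± 0.64 for Lilrb4a. Among replicates 4 to 6 it was 0.93 ± 0.12, 0.54 ± 0.13, 1.15 ± 0.15, 1.19 ± 0.14, 1.01 ± 0.18 and 3.66 ± 0.65 in the same order. So 5 of the 6 values were larger among replicates 4 to 6, beside 49.8% of all genes, and Clic1 was about the same in both. Genes picked for a low p over all 6 replicates tend to be positive in each set, so the shared direction is no independent support. The 49.8% covers genes of both directions, whereas the 6 were picked with high intervene values. Over all genes, edgeR called 4776 among replicates 4 to 6 and 0 among replicates 1 to 3. The count of 5 is therefore a description.

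Against model all 6 values were larger among replicates 4 to 6, beside 50.2% of all genes. That share too covers genes of both directions, so nothing is read from the count. Among replicates 1 to 3 the log2 fold changes were 0.30 ± 0.12 (SE) for Vasp, 0.23 ± 0.13 for Clic1, 0.25 ± 0.15 for Pdpn, 0.21 ± 0.14 for Lcp1, 0.24 ± 0.18 for Srgn and 0.79 ± 0.60 for Lilrb4a. Among replicates 4 to 6 they were 0.64 ± 0.12, 0.39 ± 0.13, 0.67 ± 0.15, 1.03 ± 0.14, 0.98 ± 0.18 and 2.68 ± 0.61. All 6 genes had the 3 intervene libraries above the 3 model libraries among replicates 4 to 6, where 14.5% of all genes did. Among replicates 1 to 3 only Vasp did, beside 4.74% of all genes. Against control the counts were 6 of 6 among replicates 4 to 6 (21.6% of all genes) and 5 of 6, all but Lilrb4a, among replicates 1 to 3 (7.64%). The genes were chosen on these same libraries, so these counts largely restate the choice and are a description.

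**Figure D2:**
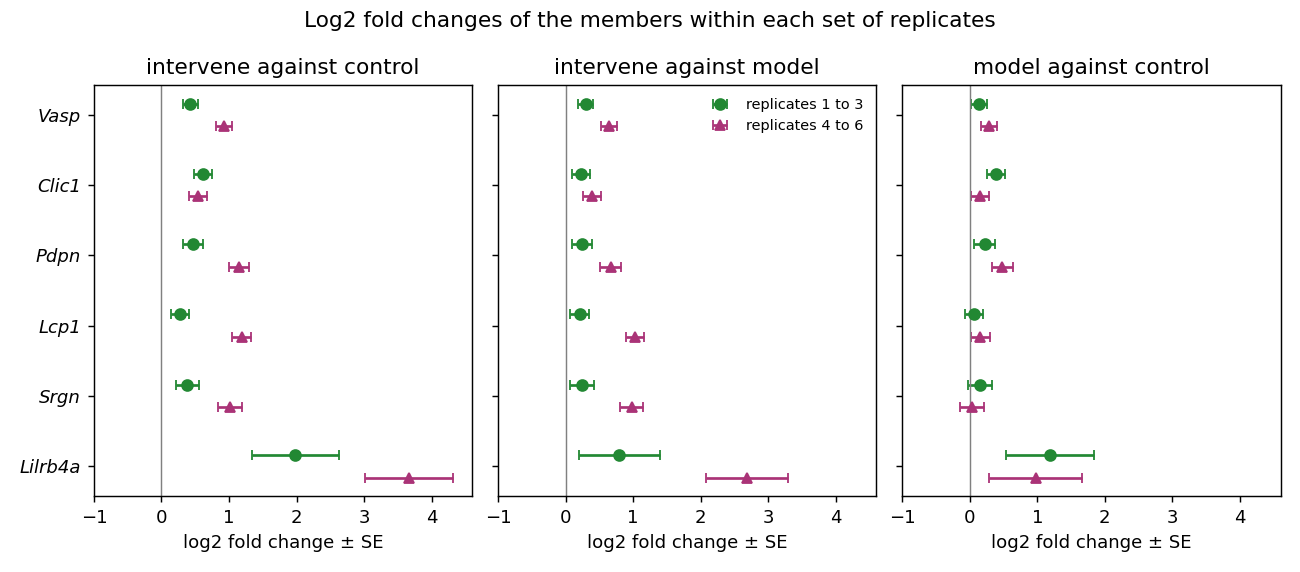
Log2 fold change with its SE (x axis) of each gene (y axis) within replicates 1 to 3 (circles) and within replicates 4 to 6 (triangles), in the 3 comparisons. Lcp1 against control stands at 0.27 and 1.19, Clic1 at 0.62 and 0.54, and all points of intervene against control or model lie above 0.

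Whether the sets differed was tested as an interaction, the fold change among replicates 4 to 6 minus that among replicates 1 to 3. Over all genes 17.9% of 18452 passed this test for intervene against control, 9.54% with the larger value among replicates 4 to 6. Lcp1 passed, with a difference of 0.91 ± 0.19 (SE) on the log2 scale (edgeR adjusted p = 0.0055). Pdpn differed by 0.68 ± 0.21 (edgeR adjusted p = 0.0357) and Vasp by 0.50 ± 0.17 (edgeR adjusted p = 0.0471). The test was not passed by Srgn, at 0.63 ± 0.25 (edgeR adjusted p = 0.0873), or by Lilrb4a, at 1.68 ± 0.91 (edgeR adjusted p = 0.216). For Clic1 the difference was -0.08 ± 0.19 (edgeR adjusted p = 0.813), with a 95% interval from -0.47 to 0.32. A low p over all replicates favours genes whose libraries vary little within a group, so the choice itself tends to lower these differences, and a test that was not passed is read as no sign of agreement.

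Of these calls that of Lcp1 held with each of the 18 libraries left out in turn, at 0.84 to 0.98. Pdpn kept its call in 11 of 18 such fits and Vasp in 4 of 18, the latter without control replicate 3, model replicate 4 or 5 or intervene replicate 6. Srgn gained a call in 2 of 18, without intervene replicate 2 or 4. With library totals in place of TMM scaling the edgeR adjusted p was 0.0137 for Lcp1, 0.0832 for Pdpn and 0.144 for Vasp.

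For intervene against model, 0.352% of 18452 genes passed the test of a difference between the sets, and none of the 6 genes did. Lcp1 came nearest, with 0.82 ± 0.20 (SE; edgeR adjusted p = 0.0683), and DESeq2 called it (0.81, adjusted p = 0.00846). Srgn differed by 0.74 ± 0.25 (edgeR adjusted p = 0.152), Lilrb4a by 1.89 ± 0.85 (edgeR adjusted p = 0.266), Pdpn by 0.42 ± 0.21 (edgeR adjusted p = 0.327), Vasp by 0.34 ± 0.17 (edgeR adjusted p = 0.307) and Clic1 by 0.16 ± 0.19 (edgeR adjusted p = 0.710). For model against control no gene passed (0% of 18452, and 11.3% at an unadjusted p under 0.05).

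The sets were also compared within each group. In control tissue, where 38.2% of all genes differed between the sets, Vasp, Pdpn and Lcp1 were lower in replicates 4 to 6, by log2 changes of -0.32 ± 0.12 (SE; edgeR adjusted p = 0.0428), -0.49 ± 0.15 (0.0172) and -0.42 ± 0.14 (0.0234). In intervene tissue, where 14.9% of all genes differed, Lcp1 and Srgn were higher in replicates 4 to 6, by 0.49 ± 0.14 (SE; edgeR adjusted p = 0.0253) and 0.59 ± 0.17 (0.0324). With library totals in place of TMM scaling the control call of Vasp (edgeR adjusted p = 0.0697) and the intervene calls of Lcp1 (0.0844) and Srgn (0.0655) were lost. In model tissue, where 18.7% differed, none of the 6 passed, the lowest edgeR adjusted p being 0.103 for Lcp1 at -0.33 ± 0.14. In control and model the thalamic marker sums given above did not overlap between the sets, whereas in intervene they did (422 to 483 and 329 to 491 CPM). The sums for hippocampus and cortex in replicates 1 to 3 and 4 to 6 were 2963 to 5306 and 6593 to 8953 CPM in model and 2011 to 4588 and 3787 to 7826 CPM in intervene. Their part in these differences was not tested.

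Levels were compared between genes per gene length (mean ± SD of n = 6 in FPKM, the authors' count scaled for gene length and library depth). Vasp had 2.01 ± 0.333 in control and 3.11 ± 0.389 in intervene, below Enah, at 4.66 ± 1.18 and 4.91 ± 0.855, and Evl, at 17.3 ± 1.80 and 16.2 ± 4.72, the Ena/VASP members of neurons and other cells. Lcp1 had 1.01 ± 0.180 and 1.62 ± 0.274. Pls1, the plastin of epithelia, was about as low, at 1.06 ± 0.334 and 1.35 ± 0.276, while Pls3, the plastin of most solid tissues, was far higher, at 20.5 ± 5.14 and 17.7 ± 2.37. Clic1 had 5.53 ± 0.390 and 8.03 ± 1.27, under Clic4 at 14.5 ± 4.96 and 17.6 ± 3.18. Its mean was above those of Clic3, at 0.174 ± 0.0582 and 0.367 ± 0.209, Clic5, at 0.426 ± 0.204 and 0.335 ± 0.111, and Clic6, at 1.13 ± 1.30 and 3.93 ± 3.75. By edgeR no group comparison over all replicates passed in these relatives, in the 6 genes or in any other gene (0% of 18452). DESeq2 called the 6 in intervene against control, as given above.

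Pdpn had 2.94 ± 0.718 FPKM in control and 4.91 ± 0.953 in intervene, and Srgn 1.48 ± 0.126 and 2.36 ± 0.609. At the bottom stood Lilrb4a, with 0.0352 ± 0.0177 and 0.253 ± 0.139, and Lilr4b, with 0.00999 ± 0.0151 and 0.116 ± 0.0612. The related receptor genes Pirb, at 0.0899 ± 0.0333 and 0.134 ± 0.0607, and Lilra5, at 0.0976 ± 0.0188 and 0.106 ± 0.0279, were scarce as well. In intervene tissue the order of the 6 genes was Clic1, Pdpn, Vasp, Srgn, Lcp1 and Lilrb4a. The SDs of Vasp and Srgn overlapped there, as did those of Srgn and Lcp1.

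**Figure D3:**
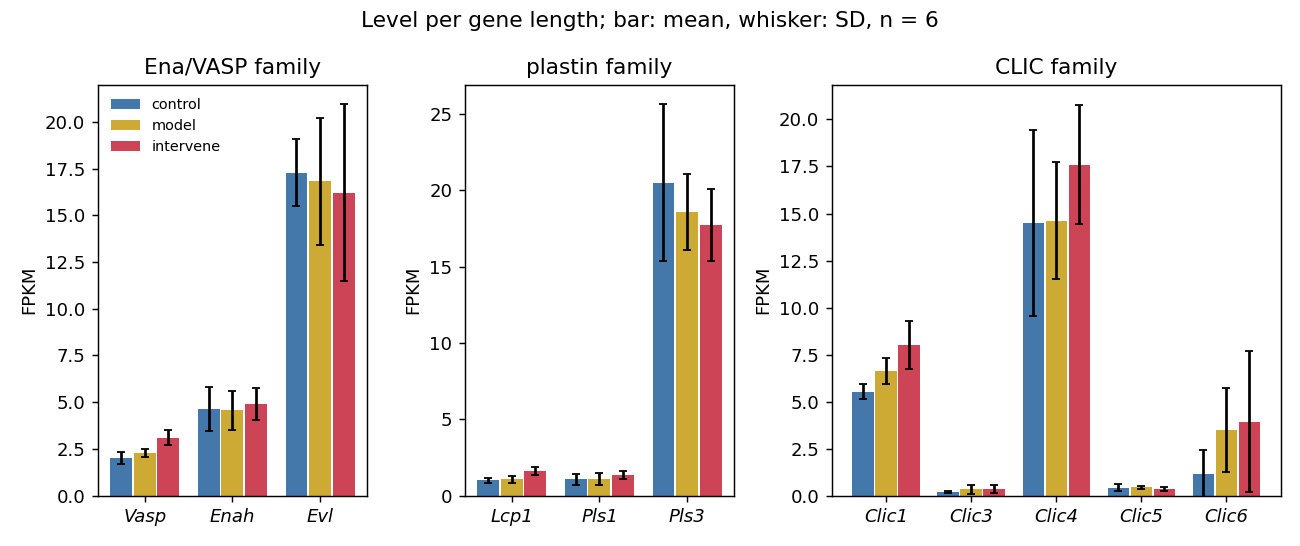
FPKM (y axis) of Vasp, Lcp1 and Clic1 and of their relatives in the 3 groups, as the mean of 6 libraries with the SD. Evl, Pls3 and Clic4, at 14.5 to 20.5 FPKM in control, are the most abundant of each family, and Clic6 has an SD about as large as its mean in intervene (3.93 ± 3.75).

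The pathways around the 6 genes were read from 8 lists, chosen with earlier results of these data known and counted here without the 6. By edgeR no list gene and no gene of the table was called in any group comparison over all replicates. None was called among replicates 1 to 3 either, where no gene of the table was. All calls described next are edgeR calls among replicates 4 to 6, where 14.7% of all genes were higher and 11.2% lower in intervene than in control, and 3.66% higher and 2.05% lower than in model.

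Other tissue measures differed in the same libraries. The summed level of 7 oligodendrocyte markers was 6766 to 7569 CPM in control replicates 4 to 6, 8255 to 11633 in model and 13804 to 15216 in intervene, with 6 of 7 called higher than control. The 6 neuron markers gave 7710 to 8407, 6342 to 7539 and 5301 to 6531 CPM, with 2 of 6 called lower, and the 5 erythroid markers 116 to 159, 142 to 185 and 269 to 411 CPM, with 4 of 5 called higher. Mitochondrial genes took 6.10% to 9.06% of counts in control, 7.73% to 10.02% in model and 9.70% to 15.1% in intervene. The part of these in the list results was not tested.

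ERM proteins and podoplanin partners gave the highest share, with 7 of 9 genes measured higher than control and none lower, at a median log2 fold change of 0.60 beside 0.00 for all genes. Msn, which encodes moesin, the ERM protein of leukocytes, had 23.9 to 26.8 CPM in control, 25.4 to 28.8 in model and 44.4 to 54.6 in intervene. It rose by 0.95 ± 0.10 (SE) against control (edgeR adjusted p = 2.5e-05) and 0.85 ± 0.10 against model (edgeR adjusted p = 0.00039). Cd44, a hyaluronan receptor that podoplanin binds, had 1.40 to 2.78, 1.56 to 2.01 and 5.85 to 7.68 CPM and rose by 1.92 ± 0.31 against model (edgeR adjusted p = 0.00391). Cd9, a tetraspanin, Rdx, Lgals8 and the small GTPase genes Rhoa and Rhoc were also higher than control, and Cd9 higher than model (0.57 ± 0.13, edgeR adjusted p = 0.019). Ezr, at 0.24 ± 0.37 against control, was not called. Msn was the one gene of the 8 lists for which the sets differed in intervene against model, by 0.84 ± 0.14 (edgeR adjusted p = 0.0269), a comparison where 0.352% of all genes passed.

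Of 12 Ena/VASP relatives and partners 4 were higher and 2 lower than control among replicates 4 to 6, at a median log2 fold change of 0.30. Pfn1, profilin 1, which hands actin monomers to Vasp, rose by 1.00 ± 0.19 (SE; edgeR adjusted p = 0.00152) and by 0.71 ± 0.19 against model (edgeR adjusted p = 0.0373). Pfn2, the profilin of neurons, fell by 0.35 on the log2 scale against control (edgeR adjusted p = 0.00924). Apbb1ip, a Rap1 effector of blood cells that binds Ena/VASP proteins, rose by 1.17 ± 0.18 against control (edgeR adjusted p = 0.000416) and 0.74 ± 0.18 against model (edgeR adjusted p = 0.0263), while its relative Raph1 was lower than control.

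Among 8 plastins and other bundlers Pls1 was higher than control and Pls3 lower (0.59 ± 0.15 and -0.56 ± 0.14, SE). The median of that list was -0.19. Among 20 genes of the ARP2/3 complex, WAVE and the cortical actin of leukocytes, 5 were higher and 3 lower than control, at a median of 0.26. Wipf1, a partner of WASP, at 1.20 ± 0.26, and the leukocyte GTPase Rac2, at 1.19 ± 0.26, were higher (edgeR adjusted p = 0.00376 each). Coro1a, coronin of leukocytes and neurons, at -0.48 ± 0.16, and Fermt3, kindlin of blood cells, at -0.71 ± 0.25, were lower (edgeR adjusted p = 0.032 and 0.0479).

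Actin capping, severing and monomer binding gave 4 of 11 genes higher and 1 lower than control, with a median of 0.20. The capping protein gene Capg rose by 1.26 ± 0.21 (SE; edgeR adjusted p = 0.000628) and the monomer binder Tmsb10 by 1.06 ± 0.20 (edgeR adjusted p = 0.00168), and both were also higher than model. Twf2 was lower in both comparisons. In the CLIC family Clic4 was higher and Clic5 lower than control, with Clic6 at 4.11 ± 0.98 (edgeR adjusted p = 0.00828). Clic6 is abundant in choroid plexus and is itself among its 15 markers here, of which 13 were higher, Clic6 included. The summed level of those markers was 220 to 241 CPM in control replicates 4 to 6 and 352, 4937 and 4262 CPM in intervene replicates 4, 5 and 6, while Clic6 had 0.140 to 0.373 FPKM in these control libraries and 2.24 to 5.27 FPKM in these intervene libraries. The part of choroid plexus in its rise was not tested.

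Receptors and signalling around Lilrb4a gave 3 of 8 measured genes higher than control and none lower, at a median of 0.37. These were Ptpn6, which encodes the SHP-1 phosphatase that inhibitory receptors recruit, at 0.70 ± 0.24 (SE; edgeR adjusted p = 0.0402), and the adaptors Fcer1g, at 1.10 ± 0.22 (edgeR adjusted p = 0.00222), and Tyrobp, at 0.51 ± 0.18 (edgeR adjusted p = 0.0499). None of the 8 was called against model. Of 11 granule genes beside Srgn 9 had too few counts to be tested, granzymes and mast cell proteases among them. Ccl3, a chemokine that serglycin can bind, had 0.226 to 0.864 CPM in control, 0.595 to 0.977 in model and 3.39 to 7.22 in intervene, and rose by 3.54 ± 0.58 against control (edgeR adjusted p = 0.00059) and 2.70 ± 0.55 against model (edgeR adjusted p = 0.0129).

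The sets themselves differed for 14 of the 74 list genes with a larger value among replicates 4 to 6 in intervene against control, and for 5 with a smaller one, beside 9.54% and 8.37% of all genes. The ERM and podoplanin list held 4 of these (Msn, Cd9, Lgals8 and Rhoa) and no smaller value.

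**Figure D4:**
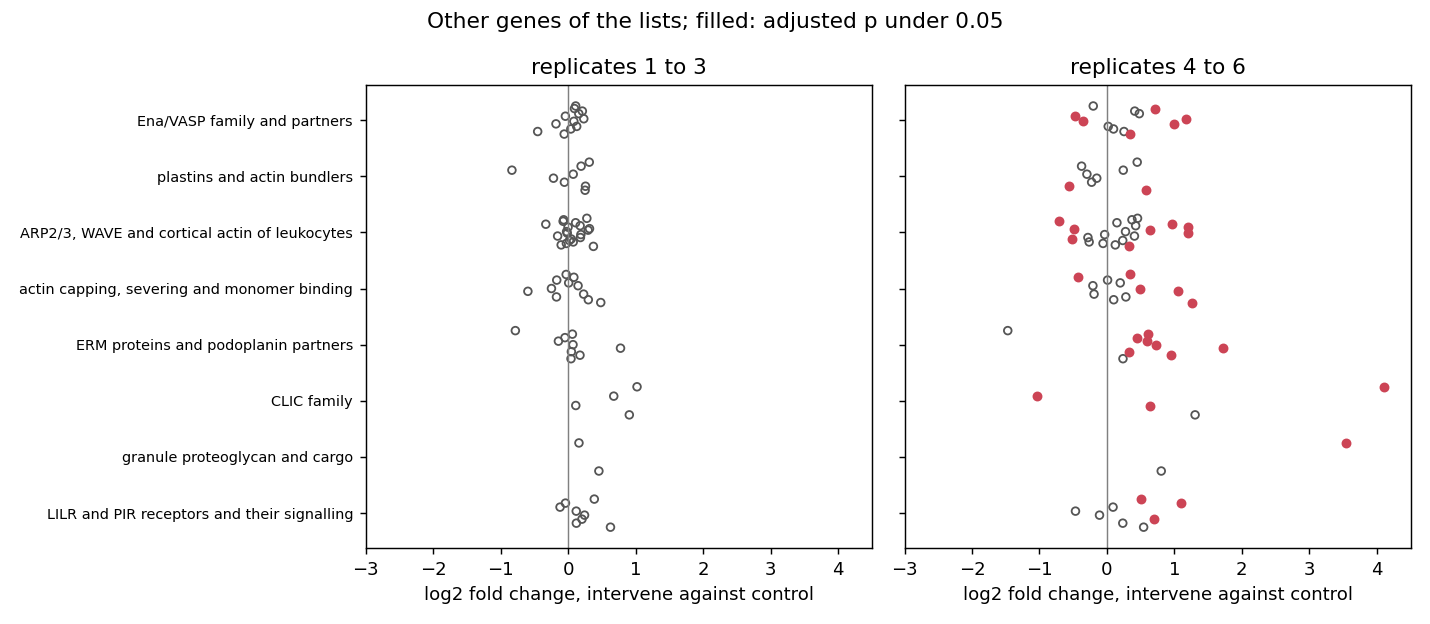
Log2 fold change in intervene against control (x axis) of the genes of the 8 lists without the 6 chosen genes, within replicates 1 to 3 (left) and within replicates 4 to 6 (right). Filled points passed edgeR adjusted p under 0.05; there are none on the left, and on the right 7 of 9 genes of the ERM and podoplanin list are filled.

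Since Lcp1, Srgn and Lilrb4a are leukocyte genes, markers of leukocyte classes were read beside them. In bulk tissue more cells of a type and more RNA per cell cannot be told apart. The summed level of 13 pan-leukocyte markers, led by Laptm5, was 81.5 to 101 CPM in control, 89.2 to 119 in model and 95.5 to 129 in intervene, so the groups overlapped, and all 13 were detected in each group. All 13 log2 fold changes of intervene against control were positive, with a median of 0.50, beside 50.8% of all genes and a median of 0.00. By edgeR none was called over all replicates, where no gene of the table was, and 6 of 13 were higher among replicates 4 to 6. In that set the sum was 81.5 to 100 CPM in control, 89.2 to 99.98 in model and 112 to 129 in intervene. The 12 homeostatic microglia markers gave 247 to 393, 255 to 347 and 281 to 343 CPM, with 5 of 12 positive and a median of -0.10. The 16 markers of reactive microglia and macrophages were all positive, with a median of 0.73, and 7 of 16 were higher among replicates 4 to 6. Their sum, led by Apoe, was 2862 to 4532 CPM in control, 3336 to 4606 in model and 4047 to 4887 in intervene. Among replicates 1 to 3 it was 4266 to 4532 in control, 4096 to 4606 in model and 4047 to 4549 in intervene. The groups overlapped in both. Among replicates 4 to 6 it was 2862 to 3376 in control, 3336 to 3620 in model and 4470 to 4887 in intervene. So in replicates 4 to 6 the intervene libraries lay above the others in this sum and in the pan-leukocyte sum. The homeostatic microglia sums overlapped there, at 322 to 393, 317 to 347 and 315 to 343 CPM.

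The sums of the other leukocyte lists were lower, but sums over unlike genes do not compare numbers of cells. Fn1 led the 10 monocyte markers and Csf3r the 10 neutrophil markers. The 10 monocyte markers summed to 33.0 to 59.3 CPM in control, 35.3 to 55.0 in model and 28.7 to 61.4 in intervene, and the 3 intervene libraries numbered 4 to 6, highest in Lcp1 and Lilrb4a, had 28.7 to 39.1 CPM. The 6 border macrophage markers gave 4.46 to 5.88 CPM in those 3 libraries, below the 6.64 to 8.57 CPM of control replicates 4 to 6. Model replicates 4 to 6, at 4.98 to 7.18 CPM, overlapped them. Replicates 1 to 3 went the other way, with 11.4 to 12.5 CPM in intervene, 5.16 to 11.6 in control and 7.82 to 10.8 in model. In intervene replicates 4 to 6 the 10 neutrophil markers gave 10.3 to 14.6 CPM. Their sum was 4.38 to 5.64 CPM in model replicates 4 to 6 and 5.68 to 8.81 in control replicates 4 to 6. Model replicate 1, at 11.04 CPM, was the one library of another group within the range of intervene replicates 4 to 6. Ly6g was at 0 in replicates 4 to 6 of every group, and Camp in those of model and intervene. The 10 markers of T and NK cells, led by Cd4, which microglia and macrophages can also carry, gave 11.2 to 18.6 CPM in control, 20.1 to 55.1 in model and 12.1 to 37.0 in intervene replicates 4 to 6, with Trac at 0 in every group. The 6 B cell markers gave 0.266 to 0.382, 0.385 to 0.726 and 0.201 to 0.710 CPM there, with Ighm and Igkc at 0 in every group. The part of these classes in the levels of the 6 genes was not tested.

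Pdpn can be carried by reactive astrocytes, fibroblasts and lymphatic endothelium. The 14 reactive astrocyte markers summed to 209 to 265 CPM in control, 252 to 339 in model and 640 to 938 in intervene among replicates 4 to 6. Of these 10 were called higher than model and 9 higher than control. Among replicates 1 to 3 the sums were 367 to 657, 594 to 782 and 722 to 974 CPM. The 9 fibroblast markers summed to 64.9 to 81.6 CPM in control, 57.2 to 80.2 in model and 51.5 to 133 in intervene among replicates 4 to 6. Their median log2 fold change there was -0.16 against control, with 1 called higher, and 0.34 against model, with none called and 7 of 9 positive. In replicates 1 to 3 their sums were 86.4 to 257 CPM in control, 160 to 248 in model and 242 to 377 in intervene. The 4 lymphatic endothelial markers summed to 11.5 to 11.8, 10.6 to 12.8 and 27.1 to 32.7 CPM in replicates 4 to 6. This was mostly Prox1, which neurons also express, at 7.76 to 8.07, 8.04 to 9.84 and 24.1 to 30.2 CPM. The median of the 4 was -0.66 against control, with 1 called higher, and -0.12 against model, with none called. In replicates 1 to 3 the lymphatic sums were 22.8 to 61.1, 25.7 to 52.1 and 24.2 to 64.7 CPM. The part of astrocytes, fibroblasts and lymphatic endothelium in the level of Pdpn was not tested.

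**Figure D5:**
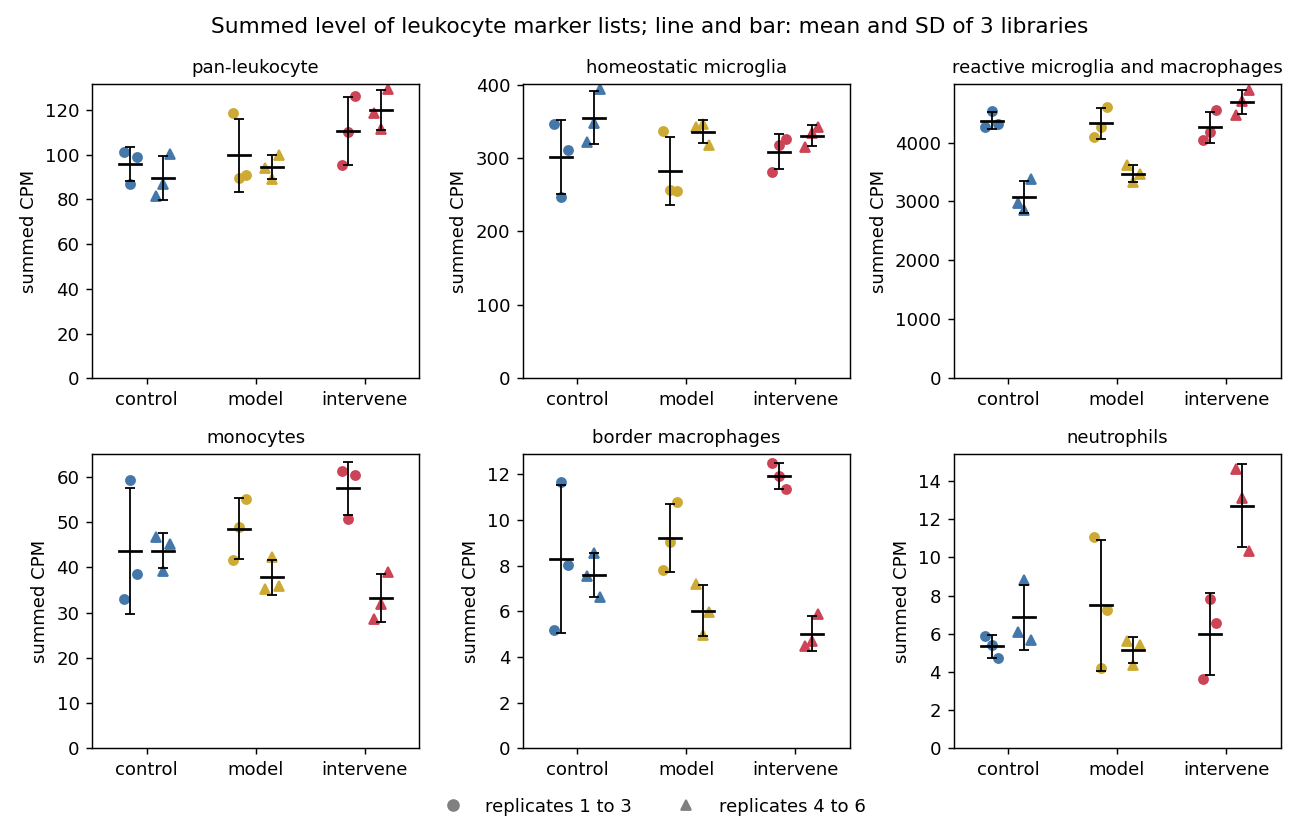
Summed CPM (y axis, from 0) of 6 leukocyte marker lists in each library by group, circles for replicates 1 to 3 and triangles for replicates 4 to 6, with the mean and SD of each 3 libraries. For neutrophil markers intervene replicates 4 to 6 stand at 10.3 to 14.6 CPM and model replicate 1 at 11.04. For border macrophage markers intervene stands at 11.4 to 12.5 CPM in the circles and 4.46 to 5.88 in the triangles.

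The 6 genes moved together over the groups and much less within them. Over the 18 libraries Pearson's r of log2 CPM was positive in all 15 pairs, from 0.68 to 0.86 with a median of 0.78, a figure that their choice on the same comparison largely fixes. After the mean of each group and number set was subtracted, r ran from -0.46 to 0.54 with a median of 0.12, and 9 of 15 pairs were positive. The points share depth and scaling, and these values are a description.

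The genes most like each of the 6 over the 18 libraries were found among 13655 others with a mean of at least 1 CPM (13656 for Lilrb4a). Vasp was most like Necap2 (r = 0.92), Cxcl16 (0.86) and Lcp1 (0.86). Lcp1 was most like Msn (r = 0.92), Tlr2 (0.90) and Tnfrsf1a (0.90). Pdpn came closest to Vcam1 (r = 0.89), Flnc (0.89) and Cd109 (0.88), and Clic1 to Steap3 (0.82), Icam1 (0.82) and Id3 (0.81). For Srgn they were Rela (r = 0.89), Myl12a (0.89) and Tnfrsf1a (0.87), and for Lilrb4a Cxcl10 (0.90), Fcgr2b (0.88) and Sbno2 (0.87). Tnfrsf1a thus stood among the closest 3 of both Lcp1 and Srgn, and Msn, called above, was the closest of Lcp1. After subtraction of the group and set means Lcp1 was most like Fcgr3 (r = 0.88), Zfp65 (0.86) and Spi1 (0.86). The closest genes of the others after subtraction are given at the end. Taking the highest of 13655 values over 18 libraries favours a high r, so these are a description.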

How the data were processed

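RNA was measured in 18 thalamus libraries, 6 per group. The deposited table holds raw counts per gene, made with HISAT2 and featureCounts on GRCm39, per the submitters' processing notes, and the authors also deposited FPKM values for the same genes, used here for levels between genes. Groups and replicate numbers come from the labels; the sets of replicates 1 to 3 and 4 to 6 do not. Counts were fitted in R 4.3.3 with edgeR 4.0.16 (TMM scaling, filterByExpr, robust quasi-likelihood F test, limma 3.58.1), with 1 mean per group, and again with 1 mean per group and number set, and p-values were adjusted by Benjamini and Hochberg over 18452 genes with a threshold of 0.05. The scripts were tested on simulated data. Library totals were 28481225 to 118461420 counts, and the deepest libraries carry the least counting error. Alternatives were DESeq2 1.42.0, limma-voom, library totals, no filter, FPKM with a pseudocount of 1 or 0.1, a replicate block, and each library left out. The differences between number sets within a group were added after the data were seen. The 6 genes and all lists were chosen with earlier results of these data known. Genes named are the 6, their relatives, up to 4 genes of each list by lowest p, further list genes chosen after their values were seen, and the 3 most like each of the 6. Replicate numbers were checked for pairing by correlating deviations from group means: control and model gave r of 0.18 to 0.63 in 6 of 6 pairs, intervene and control -0.14 to 0.38, and intervene and model -0.13 to 0.35, so only control and model met the level of 0.1 in every pair, from the data and not from the labels. After the number set means were subtracted, r for control and model was -0.18 to 0.24, with 3 of 6 pairs above 0.1. Promoter windows are RefSeq sequences of GRCm38.p6, matched by symbol for 5 of the 6 genes, and no coordinate of the count table was used.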

Additional observations from a re-analysis of the deposited data

Results flagged for a closer look

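Results that differed between the number sets were the changes of intervene against control for Vasp, Pdpn and Lcp1, which were larger among replicates 4 to 6 by 0.50, 0.68 and 0.91 on the log2 scale (edgeR adjusted p = 0.0471, 0.0357 and 0.0055). The CPM of the 6 genes and the summed CPM of 20 marker lists were searched in each of the 3 groups for a library that stood apart from the other 5. This was so in 8 of 78 cases, where chance gives about 1 in 20. Clic1 in control replicate 6 was at 14.6 CPM, with the other control libraries at 11.9 to 12.5 CPM. The pan-leukocyte sum in model replicate 1 was 119 CPM, with the next at 99.98 CPM. The neutrophil sum in control replicate 5 was 8.81 CPM, with the next at 6.09 CPM. The lymphatic endothelial sum was 61.1 CPM in control replicate 3, with the next at 28.9, and 64.7 CPM in intervene replicate 2, with the next at 32.7. In control replicate 2 the fibroblast sum was 257 CPM, with the next at 136, and the sum of homeostatic astrocyte markers was 4400 CPM, with the next lowest at 5149. The choroid plexus sum in control replicate 1 was 1157 CPM, with the next at 362.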

How the results depend on the processing

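The 6 genes kept the direction of their main fold changes in 66 of 66 values under the alternatives in each of the 3 group comparisons. Of the fits with a library left out, only the lowest and highest values are counted. The genes were chosen for low p and the refits use the same libraries, so the kept direction is no independent support. The number of genes called did not hold. Intervene against control gave 0 in the main fit, 73 by DESeq2 (66 higher), 1 with log2(FPKM + 1), 1 with log2(FPKM + 0.1), 4776 within replicates 4 to 6, and 0 to 4 with a library left out. Intervene against model gave 0, 2 by DESeq2, 1053 within replicates 4 to 6, and 0 to 0 with a library left out. Model against control gave 0 and 2 by DESeq2. The set difference in intervene against model gave 65 (51 higher), 673 by DESeq2, 16 with library totals, 120 without the filter, 35 with log2(FPKM + 1) (18 higher), 28 with log2(FPKM + 0.1) (18 higher), and 2 (without model replicate 2) to 578 (without intervene replicate 2). The set difference in model against control gave 0, 200 by DESeq2, 5 without the filter, and 0 to 13 with a library left out. The set difference in intervene against control gave 3305 (1760 higher and 1545 lower), 1125 higher and 1598 lower with log2(FPKM + 1), and 2094 (without control replicate 5) to 3461. The cause was not tested. With a replicate block the 3 group comparisons gave 0 genes each and the set differences 3017, 56 and 0, and the block ended the call of Vasp (0.49, edgeR adjusted p = 0.0526) and no other call of the 6 genes there. Without the filter the adjusted p of Vasp was 0.149. With log2(FPKM + 1) those of Vasp and Pdpn were 0.146 and 0.105 and with log2(FPKM + 0.1) 0.133 and 0.0835, while Lcp1 stayed at 0.0146 and 0.0155. Pdpn lost its call without control replicate 2, 4, 5 or 6 or intervene replicate 1, 3 or 5. Within control, the call of Vasp was lost without any of 5 control replicates (all but replicate 3), model replicate 6 or intervene replicate 1, that of Pdpn without replicate 2 or 6, and that of Lcp1 without replicate 1, 3, 4 or 6. Within intervene, those of Lcp1 and Srgn were lost without replicate 1, 3, 5 or 6. Depth limits Lilrb4a most, with 4 to 10 counts per control library.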

Other observations

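Within groups and number sets, after their means were subtracted, the genes most like Srgn over the 18 libraries were Sema3b (r = 0.93), Loxl1 (0.90) and Myl12a (0.89), and those most like Clic1 were Coq4 (0.91), Ruvbl2 (0.89) and Snx15 (0.89). For Vasp they were Birc2 (0.87), Fancm (0.86) and Adrb3 (0.82), for Pdpn Angptl2 (0.89), Cep72 (0.89) and Eif2d (0.88), and for Lilrb4a Irgm1 (0.82), Nob1 (0.80) and Timp1 (0.80). Of these, Myl12a was also among the closest 3 of Srgn without subtraction.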
